A study of Mus musculus with 24 samples.

Results

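Bst1 and Mme encode enzymes that sit on the outer face of the cell, and their transcripts are described here in the terminal ileum of mice exposed to a macrolide antibiotic early in life. They are 2 of the 547 genes of an immunology panel and were chosen by their rises after antibiotic exposure, so their differences between treatment groups are given as a description without a test. The tests below use other values. These are how the genes moved together among mice of one group, how they differed between the sexes, and how other genes differed between groups. Genes that moved with the members share deviations of single mice with them, so their group differences are not independent of the choice.

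The study asked whether 1 early course of tylosin, a macrolide given to pups through the milk of the treated dam, has lasting effects on the host as several courses do. C57BL/6 mice were sampled at week 7. The PAT1 group (pulsed antibiotic treatment) received the nursing course alone, the PAT3 group received further courses after weaning, and Control mice drank untreated, non-acidified water throughout. All groups shared the same inbred strain, whole litters were assigned to a group, and mice were housed by sex and group, so an effect of litter or cage cannot be told apart from the treatment. By the labels, Control and PAT1 each comprised 7 mice, of which 4 were male and 3 female, and PAT3 comprised 10, of which 4 were male and 6 female. A figure legend of the study divides the treated mice between PAT1 and PAT3 differently for this assay. The labels were followed, and which division holds could not be settled, so the values of both groups carry that doubt. RNA of the ileum was counted with colour-coded probes (NanoString nCounter), without amplification, and values are log2 normalized counts.

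Bst1, also known as CD157 or bone marrow stromal antigen 1, is a GPI-anchored relative of Cd38 that makes and degrades cyclic ADP-ribose from NAD+. It is known from bone marrow stroma, where it supports early B cells, and from myeloid cells and Paneth cells of the intestinal crypt. Mme, also known as neprilysin or CD10, is a zinc endopeptidase that cleaves small peptides such as enkephalins and substance P. It is known from the brush border of kidney and intestine and from lymphoid precursors. RefSeq (assembly GRCm38.p6) places Bst1 on chromosome 5 directly before Cd38, and Mme on chromosome 3. Cd38 was not measured on the panel.

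The promoter windows below, taken from RefSeq (GRCm38.p6), are shown because Mme moved with a small set of genes among mice of one group. Each spans 250 bases before to 50 bases after an annotated transcript start, printed 5′ to 3′ on the strand of the gene. Of the 9 genes looked up (both members and the 7 genes whose levels followed them most closely, described below), 8 had a window, with Bst1 named only. Mme had 3 windows on the plus strand, of which the first (chr3:63294961-63295260) and the second (chr3:63295622-63295921) are printed. The others are Card9, the gene closest to Bst1 (chr2:26360860-26361159, minus strand), and Btnl2 and Gm10499, both close to Bst1 and to Mme (chr17:34354572-34354871, plus strand, and chr17:36145900-36146199, minus strand). Capitals mark matches, on either strand, to short motifs of factors known from intestinal epithelium, namely AAAGTCC, the core of an HNF4 site, AGATAA, known from factors of the GATA family, TTTATNG, known from CDX factors, and GTTAAT, an arm of an HNF1 site. The letters were chosen after the windows had been read.
Mme, first window: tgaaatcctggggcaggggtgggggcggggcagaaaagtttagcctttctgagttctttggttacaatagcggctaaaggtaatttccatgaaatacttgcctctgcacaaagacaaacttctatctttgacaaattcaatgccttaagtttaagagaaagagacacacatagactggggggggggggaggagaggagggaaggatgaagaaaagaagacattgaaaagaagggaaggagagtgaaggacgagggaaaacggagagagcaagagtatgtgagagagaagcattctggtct
Mme, second window: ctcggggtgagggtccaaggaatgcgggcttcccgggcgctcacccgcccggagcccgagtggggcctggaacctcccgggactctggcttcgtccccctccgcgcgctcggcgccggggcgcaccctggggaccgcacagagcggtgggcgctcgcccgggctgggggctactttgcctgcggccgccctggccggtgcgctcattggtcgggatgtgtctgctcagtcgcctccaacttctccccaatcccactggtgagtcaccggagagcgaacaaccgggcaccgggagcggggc
Card9: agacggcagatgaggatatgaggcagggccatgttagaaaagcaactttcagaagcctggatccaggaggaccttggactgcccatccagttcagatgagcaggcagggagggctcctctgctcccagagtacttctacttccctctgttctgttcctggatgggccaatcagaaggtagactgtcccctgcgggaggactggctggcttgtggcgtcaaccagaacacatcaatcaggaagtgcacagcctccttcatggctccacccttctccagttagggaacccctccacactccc
Btnl2: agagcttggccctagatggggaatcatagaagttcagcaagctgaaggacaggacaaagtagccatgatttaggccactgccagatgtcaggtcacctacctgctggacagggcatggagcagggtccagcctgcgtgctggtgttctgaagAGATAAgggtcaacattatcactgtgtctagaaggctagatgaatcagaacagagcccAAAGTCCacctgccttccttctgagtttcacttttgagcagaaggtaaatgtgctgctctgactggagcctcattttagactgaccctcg
Gm10499: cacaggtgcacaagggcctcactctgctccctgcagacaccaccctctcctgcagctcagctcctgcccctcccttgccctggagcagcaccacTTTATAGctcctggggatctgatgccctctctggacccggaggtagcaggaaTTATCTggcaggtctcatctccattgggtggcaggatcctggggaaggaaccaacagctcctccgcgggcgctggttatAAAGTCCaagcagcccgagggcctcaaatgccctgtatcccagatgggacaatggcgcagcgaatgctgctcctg

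The windows of Mme differed in base composition, with a GC content of 46% in the first, 73% in the second and 72.3% in the third, against a median of 52.7% over all 32851 windows of the table. None of the 4 motifs occurred in the windows of Mme or Card9. AAAGTCC occurred once each in Btnl2, Gm10499 and Btnl1, and 4.21% of all windows held it. AGATAA occurred once each in Btnl2 and Gm10499 (11.2% of all windows), and TTTATNG occurred once in Gm10499 (10.9% of all windows), while GTTAAT, held by 7.1% of all windows, occurred only in 1 window of Cd82 among these genes. Among the genes with a window, Cd82 had 4, Mme 3 and Cdkn1a 2, and each other gene had 1. Since the letters were chosen after these windows had been read, the matches cannot be weighed against the shares of all windows. A match is a run of letters and was not tested as a binding site.

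Bst1 was at its lowest in Control and at its highest in PAT1. In Control, male values were 5.54, 6.47, 6.9977 and 8.50, and female values were 7.53, 8.80 and 8.9997. In PAT1, males lay at 9.9955, 10.04, 10.10 and 10.49 and females at 10.98, 11.15 and 11.23. In PAT3, males lay at 8.52, 8.69, 8.93 and 9.25 and females at 6.30, 9.50, 9.66, 9.74, 10.26 and 10.99. All 7 PAT1 mice were above the highest Control mouse, and the ranges did not overlap. PAT3 overlapped both other groups, with 6 of 10 mice above every Control mouse and 9 of 10 above the Control mean. The exception was PAT3 replicate 5, a female whose 6.30 was below all Control females.

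Bst1 averaged 7.55 ± 1.30 (SD) in the 7 Control mice, 10.57 ± 0.55 (SD) in the 7 PAT1 mice and 9.18 ± 1.25 (SD) in the 10 PAT3 mice. These levels correspond to geometric means of 187, 1519 and 581 normalized counts. The difference from Control was 3.02 (SE 0.53) on the log2 scale in PAT1, or 8.12-fold, and 1.63 (SE 0.63) in PAT3, or 3.1-fold. Each was the largest rise among the 547 genes in its comparison, which is the property the gene was picked for. Both comparisons share the same Control mice. Between the antibiotic groups, PAT3 was lower than PAT1 by a log2 difference of -1.39 (SE 0.51).

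**Figure D1:**
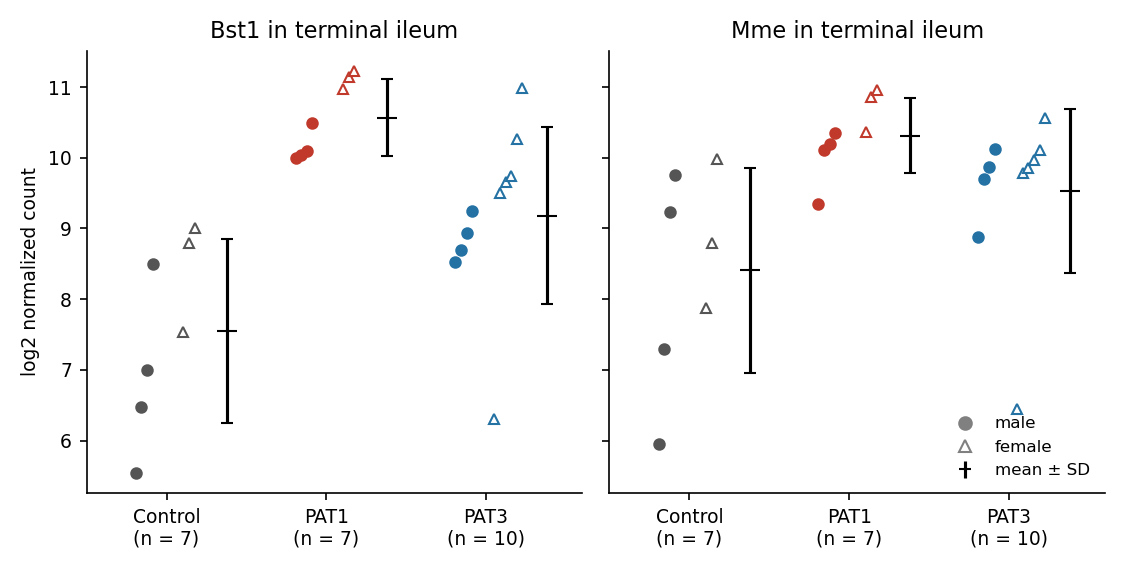
Log2 normalized counts of Bst1 (left) and Mme (right) in each mouse of Control (n = 7), PAT1 (n = 7) and PAT3 (n = 10), with filled circles for males, open triangles for females and mean ± SD beside each group. The Bst1 values of PAT1 (9.9955 to 11.23) lie above the whole Control range (5.54 to 8.9997), whereas for Mme the ranges overlap, and the single low PAT3 point in both panels is PAT3 replicate 5 (6.30 and 6.45).

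Mme followed the same order of groups with smaller differences. Control males had 5.95, 7.30, 9.24 and 9.75, and Control females had 7.87, 8.79 and 9.98. PAT1 males had 9.34, 10.11, 10.19 and 10.35, and PAT1 females had 10.37, 10.86 and 10.96. PAT3 males had 8.88, 9.70, 9.87 and 10.12, and PAT3 females had 6.45, 9.79, 9.85, 9.97, 10.11 and 10.57. The Control mice were spread from 5.95 to 9.98, and the highest of them reached the levels of PAT1, so that 6 of 7 PAT1 mice and 3 of 10 PAT3 mice were above every Control mouse. All 7 PAT1 mice and 9 of 10 PAT3 mice were above the Control mean.

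Mme averaged 8.41 ± 1.45 (SD) in the 7 Control mice, 10.31 ± 0.53 (SD) in the 7 PAT1 mice and 9.53 ± 1.16 (SD) in the 10 PAT3 mice, or geometric means of 340, 1271 and 741 normalized counts. The log2 difference from Control was 1.90 (SE 0.58) in PAT1, or 3.73-fold, which ranked 3rd of 547. In PAT3 it was 1.12 (SE 0.63), or 2.18-fold, which ranked 4th, after Bst1, Cxcl11 (1.25) and C9 (1.16). The genes next below Mme were Cxcr5 in PAT1 (1.45) and Tnfsf15 in PAT3 (1.03). PAT3 and PAT1 differed by -0.78 (SE 0.47), which is within the SD of the PAT3 mice. Single mice weighed on these values, and the PAT3 minus Control difference of Mme was 0.71 without Control replicate 4, while the PAT3 minus PAT1 difference was -0.44 without PAT3 replicate 5.

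The differences of the 2 genes were not of one size. The log2 ratio of Bst1 to Mme was -0.86 ± 0.74 (SD) over the Control mice, 0.26 ± 0.39 (SD) over the PAT1 mice and -0.35 ± 0.59 (SD) over the PAT3 mice, with n as above. It was 1.12 (SE 0.32) higher in PAT1 than in Control and 0.51 (SE 0.32) higher in PAT3. All 7 PAT1 mice and 8 of 10 PAT3 mice had a ratio above the Control mean. The zero of this ratio has no meaning of its own, since each gene is read by its own probe.

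Both genes were counted in every mouse. The lowest recovered count was 66 for Bst1, in Control, and 88 for Mme, in Control and in PAT3, for a counting error of 12.3% and 10.7%. Among mice of one group, Bst1 had an SD of 1.11 and Mme of 1.12 on the log2 scale after removal of the group means, which ranked 11th and 10th among 547 genes (median SD 0.40). Total counts per mouse ranged from 171671 to 782392. Across mice, with group means removed, the log2 total count had r = 0.11 with Bst1 (rho = 0.15, permutation p = 0.535 for r and 0.459 for rho, adjusted p = 0.701 and 0.611, n = 24) and r = 0.26 with Mme (rho = 0.31, permutation p = 0.109 and 0.108, adjusted p = 0.181 and 0.204, n = 24). Without the 2 samples farthest from the median, r was 0.24 and 0.26.

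Bst1 levels averaged higher in females than in males of each group. Mean Bst1 of females and males was 8.44 and 6.88 in Control, 11.12 and 10.15 in PAT1, and 9.41 and 8.85 in PAT3, with every PAT1 female above every PAT1 male. In a limma fit with treatment and sex over all genes, Bst1 was 0.98 higher in females (SE 0.39, 95% CI 0.17 to 1.79, p = 0.0187). After adjustment over 547 genes it did not pass the threshold (adjusted p = 0.33, limma). In that comparison 2 genes passed (Ccl8 and Nox1, 0.366% of 547), and 64 had an unadjusted p under 0.05. Mice were housed by sex, so an effect of cage cannot be told apart from this difference. The outcome depended on 1 mouse and on the weighting of samples. Without PAT3 replicate 5 the difference was 1.23 with an adjusted p of 0.0115 by limma, and with sample weights it was 0.97 with an adjusted p of 0.0476 by limma.

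For Mme the female minus male difference was 0.38 (SE 0.43, 95% CI -0.53 to 1.28, limma adjusted p = 0.832). The means of females and males were 8.88 and 8.06 in Control, 10.73 and 9.9999 in PAT1, and 9.46 and 9.65 in PAT3. Whether the response to antibiotic depended on sex was tested by limma's F-test over both treatment contrasts. It gave F = 0.55 for Bst1 (adjusted p = 0.777) and F = 0.57 for Mme (adjusted p = 0.771), with 1 gene called (Il17f, 0.183% of 547). As a description, the PAT1 minus Control difference of Bst1 was 3.28 in males and 2.68 in females, and the PAT3 minus Control difference was 1.97 in males and 0.96 in females. For Mme these were 1.94 and 1.85 in PAT1 and 1.58 and 0.58 in PAT3.

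The genes rose and fell together among mice of the same treatment. With group means removed, Bst1 and Mme had r = 0.86 over 24 mice (permutation p = 3e-05, adjusted p = 0.0003 over the 20 relations tested) and rho = 0.69 (permutation p = 0.00121, adjusted p = 0.00807). Without the 2 mice farthest from the median, r was 0.68. Removing the means of each group and sex gave r = 0.89. Mice with much Bst1 thus tended to have much Mme within their own group.

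Within single groups the relation leaned on the mice at the ends. In Control, r was 0.86 (exact permutation p = 0.0141, adjusted p = 0.0402, n = 7) and rho was 0.82 (exact permutation p = 0.0341, adjusted p = 0.114), and r without the 2 farthest mice was 0.61. In PAT1, r was 0.73 (exact permutation p = 0.049, adjusted p = 0.098, n = 7) and rho was 0.68 (exact permutation p = 0.11, adjusted p = 0.204), with 0.36 without the 2 farthest mice. In PAT3, r was 0.88 (permutation p = 0.00334, adjusted p = 0.0134, n = 10) and rho was 0.52 (permutation p = 0.133, adjusted p = 0.221), with 0.33 without the 2 farthest mice. In PAT3 the relation rested on PAT3 replicate 5, which was low in both genes, and without it r was 0.60 (adjusted p = 0.202, permutation). In Control the call was lost without replicate 1, 2, 4 or 5 (adjusted p from 0.098 to 0.227, permutation), the lowest r being 0.72 without replicate 4.

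**Figure D2:**
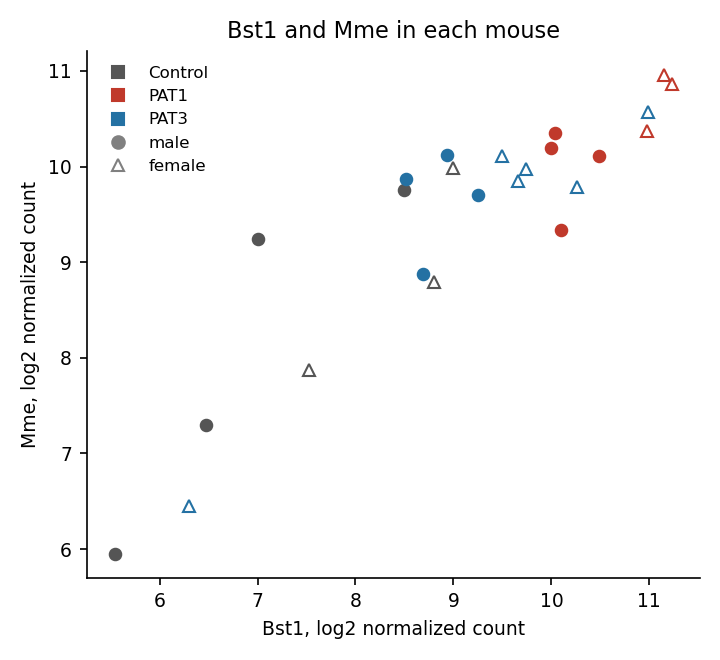
Mme against Bst1, both as log2 normalized counts, in each of the 24 mice, coloured by group with circles for males and triangles for females. Within each group mice high in one gene tended to be high in the other (r = 0.86 in Control, 0.73 in PAT1 and 0.88 in PAT3), and the PAT1 mice are shifted to higher Bst1 at a given Mme.

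Among the 546 other genes, the one closest to Bst1 within groups was Card9, an adaptor downstream of C-type lectin receptors, with r = 0.95 over 24 mice after removal of group means. It was followed by Btnl2 (0.90), a butyrophilin-like gene, Gm10499 (0.88), which RefSeq lists with the synonym MumuTL, Mme itself (0.86, 4th of 546), Irak2 (0.85), a kinase of interleukin 1 and Toll-like receptor signalling, and Cdkn1a (0.84), the cell cycle inhibitor p21. The median r of Bst1 over all 546 genes was 0.02, and 8 genes reached 0.8. These likenesses are ranked over all genes and are given without a test.

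For Mme the closest genes were Gm10499 (r = 0.94), Btnl2 (0.93), Irak2 (0.92), Btnl1 (0.90), a butyrophilin-like gene of enterocytes, and Cd82 (0.90), a tetraspanin, while Bst1 ranked 13th of 546. The median r of Mme over all 546 genes was -0.04, and 20 genes reached 0.8. Btnl2, Gm10499 and Irak2 were thus among the 5 closest genes of both members. Across the 545 genes other than the members, the r with Bst1 and the r with Mme were themselves correlated (r = 0.94 across genes, which are not independent). PAT3 replicate 5 and Control replicate 4, the lowest mice of their groups for both members, contributed to these values. Without these 2 mice, r with Bst1 was 0.92 for Card9, 0.78 for Btnl2, 0.74 for Gm10499, 0.71 for Irak2 and 0.67 for Cdkn1a. With Mme it was 0.86 for Gm10499, 0.84 for Irak2, 0.83 for Btnl2, 0.79 for Btnl1 and 0.78 for Cd82. Within PAT1, r of these genes ran from 0.20 (Cdkn1a) to 0.83 (Card9) with Bst1 and from 0.58 (Cd82) to 0.96 (Irak2) with Mme.

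The genes that followed the members within groups were also compared with Control, in the fit over all genes. Against Control, limma called 40 genes (7.31% of 547) higher in PAT1 and 61 (11.2%) lower. For PAT3 the counts were 76 (13.9%) higher and 98 (17.9%) lower. These splits depended on scaling, since the median gene of a sample lay on average at 6.97 in Control, at 6.82 in PAT1 and at 6.78 in PAT3. With each sample re-centred on its median, PAT1 had 57 higher against 46 lower genes, and PAT3 had 152 against 78. Of the 7 distinct genes closest to the members, 3 were called higher in PAT1 and 0 in PAT3, and 0 were called lower. Their log2 differences from Control ranged from 0.07 to 0.94 in PAT1 (median 0.65, against 0.01 over all genes) and from -0.42 to 0.46 in PAT3 (median 0.27, against 0.03). These genes share deviations of single mice with the members, so these calls and differences are not independent of the choice of Bst1 and Mme.

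The 3 called in PAT1 were Btnl1 (0.94, SE 0.29, adjusted p = 0.0194), Gm10499 (0.79, SE 0.28, adjusted p = 0.0479) and Cd82 (0.65, SE 0.23, adjusted p = 0.0472), by limma. All 7 PAT1 mice were above the Control mean in each of them. The calls of Gm10499 and Cd82 were each lost in 10 of 21 alternatives, among them the methods' test and single mice left out (Control replicates 2, 4 and 6 and PAT1 replicates 2, 3, 4, 5 and 6 for both, and PAT1 replicate 7 for Gm10499), and that of Btnl1 in 3 (Control replicates 2 and 4 and the methods' test). In PAT3, Btnl1 had 0.46 (SE 0.26, limma adjusted p = 0.184), and 0.65 (adjusted p = 0.0167) without PAT3 replicate 5. Irak2 had 0.46 in PAT1 (SE 0.21, limma adjusted p = 0.151) and 0.41 in PAT3 (SE 0.20, limma adjusted p = 0.11), the latter 0.51 (adjusted p = 0.0268) without PAT3 replicate 5.

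Card9 was not called in either group. Its range was 7.02 to 8.92 in Control, 7.56 to 8.97 in PAT1 and 6.40 to 8.86 in PAT3, and the ranges of the groups overlapped. Card9 had a log2 difference of 0.07 from Control in PAT1 (SE 0.32, limma adjusted p = 0.928) and of -0.42 in PAT3 (SE 0.30, limma adjusted p = 0.298). Its r with Bst1 was nevertheless 0.99 within Control, 0.83 within PAT1 and 0.96 within PAT3. The log2 ratio of Bst1 to Card9 was -0.61 ± 0.61 (SD) over the 7 Control mice, 2.34 ± 0.30 (SD) over the 7 PAT1 mice and 1.44 ± 0.62 (SD) over the 10 PAT3 mice. Each SD was lower than that of Bst1 alone in the group (1.30, 0.55 and 1.25). Card9 was picked for its high r with Bst1 in these same mice, so the lower SD is no separate result. All PAT1 ratios (1.80 to 2.62) lay above all Control ratios (-1.49 to 0.08), and in PAT3 they ran from -0.11 to 2.13 and overlapped both other groups. Since the group means of Card9 lay close together in Control and PAT1, the gap between these ratios restates the Bst1 difference for which the gene was chosen.

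For Mme the matching ratio was that to Gm10499, its closest gene. It averaged -1.15 ± 0.93 (SD) over the 7 Control mice, -0.05 ± 0.33 (SD) over the 7 PAT1 mice and -0.27 ± 0.55 (SD) over the 10 PAT3 mice. The ratios overlapped between Control (-2.69 to -0.00) and both PAT1 (-0.47 to 0.32) and PAT3 (-1.76 to 0.10).

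**Figure D3:**
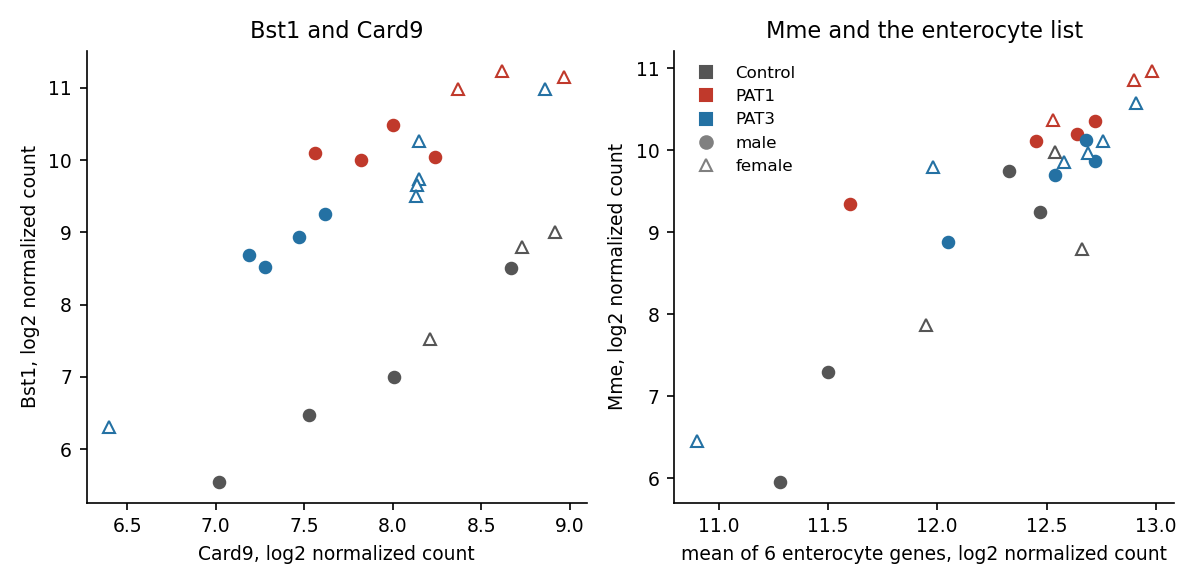
Left, Bst1 against Card9, and right, Mme against the mean of the 6 measured enterocyte genes, all as log2 normalized counts in each of the 24 mice, coloured by group with circles for males and triangles for females. Bst1 rises with Card9 in each group (mean log2 ratio -0.61 in Control, 2.34 in PAT1 and 1.44 in PAT3, with PAT3 overlapping both), and Mme rises with the enterocyte mean (r = 0.90 with group means removed).

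At the other end were, with 1 exception, genes known from macrophages. The lowest r with Bst1 were those of Ccrl1 (-0.78), the exception, an atypical chemokine receptor, Csf1r (-0.76), the receptor of macrophage colony-stimulating factor, and Emr1 (-0.75), which encodes a surface antigen of macrophages. For Mme they were those of Csf1r (-0.84), C1qb (-0.76), a chain of complement C1q, and Emr1 (-0.76). Not all of these held in each group, and in PAT1 Ccrl1 had r = 0.46 with Bst1, while Emr1 had -0.27 with Bst1 and -0.30 with Mme. Of these 4 genes, Ccrl1 was called higher in PAT3 (0.75, SE 0.20, limma adjusted p = 0.00615, 9 of 10 mice above the Control mean), and the others had log2 differences from -0.26 to -0.09 in PAT1 and from -0.17 to -0.05 in PAT3 with no call.

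Other ectoenzymes showed no common pattern. Of 18 genes listed, 4 were measured, and Tfrc among them is a receptor of transferrin and no enzyme. Nt5e, the 5′-nucleotidase CD73, was called higher in both groups (PAT1 1.03, SE 0.27, adjusted p = 0.00782; PAT3 0.91, SE 0.25, adjusted p = 0.00664, limma), with 7 of 7 PAT1 and 9 of 10 PAT3 mice above the Control mean. Its r with the members was low, at 0.27 with Bst1 and 0.42 with Mme. Entpd1 (CD39), which acts before Nt5e on extracellular ATP, ran against the members within groups (r = -0.69 with Bst1 and -0.73 with Mme) and had differences of -0.12 in PAT1 and 0.20 in PAT3 (limma adjusted p = 0.622 and 0.281). In PAT3 it was called higher after re-centring on the sample median (0.39, limma adjusted p = 0.026) and with sample weights (0.24, limma adjusted p = 0.0492).

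Dpp4 (CD26), a peptidase of the brush border as Mme is, had r = 0.87 with Mme and 0.72 with Bst1. Its differences were 0.35 in PAT1 (SE 0.36, limma adjusted p = 0.557) and 0.36 in PAT3 (SE 0.33, limma adjusted p = 0.43). Tfrc was called lower in PAT1 (-0.93, SE 0.28, limma adjusted p = 0.0161, 0 of 7 mice above the Control mean), a call lost after re-centring (-0.79, adjusted p = 0.0509) and by the methods' test (adjusted p = 0.0707). Over the 4 genes, PAT1 thus had 1 call in each direction, the lower one being Tfrc, and PAT3 had 1 call, which was higher. None of the enzymes among them was called lower. Over all genes, 7.31% were called higher and 11.2% lower in PAT1, and 13.9% and 17.9% in PAT3. The median difference over the list, Tfrc included, was 0.11 in PAT1 and 0.28 in PAT3, against 0.01 and 0.03 over all genes.

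**Figure D4:**
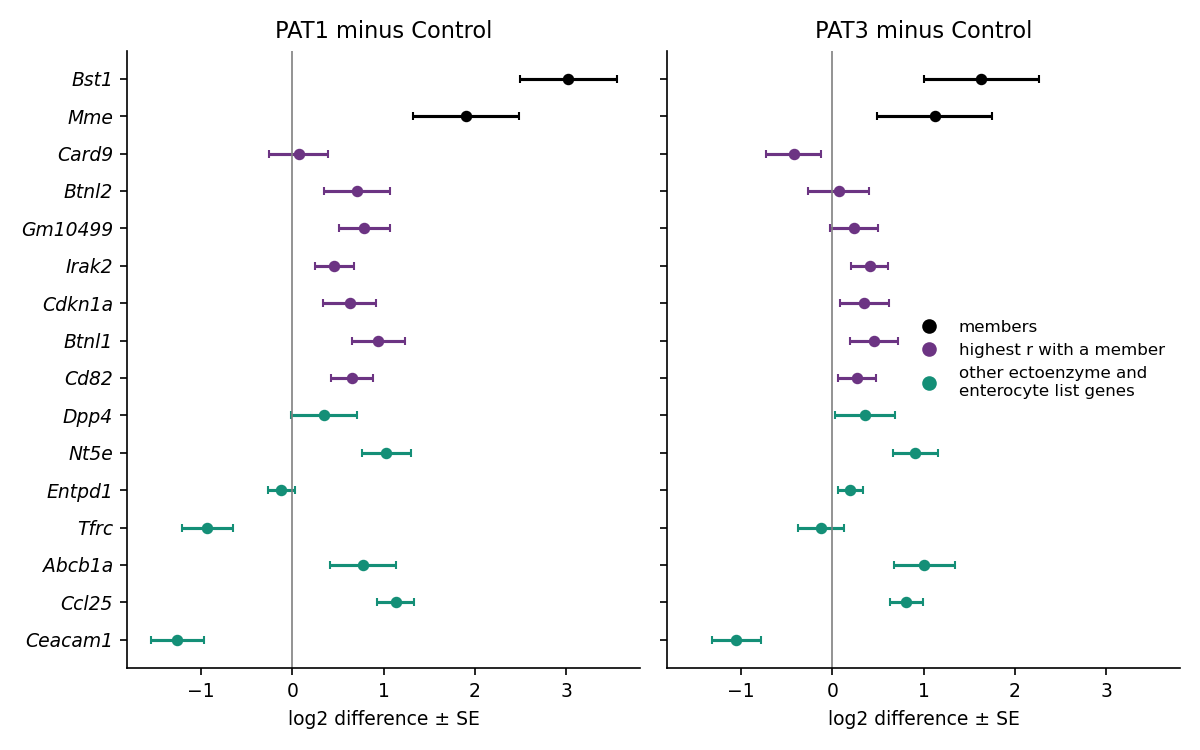
Log2 difference from Control (± SE) in PAT1 (left) and PAT3 (right) for Bst1 and Mme (black), the 7 genes closest to either of them within groups (purple) and the other measured genes of the ectoenzyme and enterocyte lists (green). Bst1 (3.02 and 1.63) and Mme (1.90 and 1.12), picked for these rises, lie to the right, while Card9, the closest gene to Bst1, lies near 0 (0.07) and below it (-0.42).

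The enterocyte genes moved with both members. Of 10 listed, 6 were measured (Abcb1a, Dpp4, Ccl25, Ceacam1, Btnl1 and Btnl2), none was at 0 in any mouse, and Btnl1 and Btnl2 were also among the closest genes above. Their mean had r = 0.90 with Mme (permutation p = 1e-05, the lowest value possible with 100000 draws, adjusted p = 0.0002; rho = 0.88, permutation p = 1e-05, adjusted p = 0.0002; n = 24) and r = 0.74 with Bst1 (permutation p = 0.00046, adjusted p = 0.0023; rho = 0.61, permutation p = 0.00505, adjusted p = 0.0252; n = 24), with group means removed. Without the 2 mice farthest from the median these were 0.86 and 0.63. Single genes of the list had centred r from 0.38 to 0.90 with Bst1 and from 0.63 to 0.93 with Mme. Within PAT1, however, Ccl25 had r = -0.43 with Bst1 and 0.05 with Mme. This list and those below were chosen with earlier results of these data known, so the p-values of their correlations are not independent evidence. The summed level ranged from 36754 to 70516 normalized counts in Control, 31252 to 70481 in PAT1 and 22684 to 69601 in PAT3. In bulk tissue, more cells of a type and more RNA per cell cannot be told apart.

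With the enterocyte mean as a covariate, the PAT1 minus Control difference was 1.08 for Mme and 2.35 for Bst1, against 1.90 and 3.02 without it. The PAT3 minus Control difference became 0.61 for Mme and 1.22 for Bst1, against 1.12 and 1.63. The list holds Btnl1 and Btnl2, which followed the members closely, so these changes do not measure a share due to enterocyte RNA. Between groups the list was mixed, with 2 of 6 genes called higher and 1 of 6 lower in each comparison, against 7.31% higher and 11.2% lower of all genes in PAT1 and 13.9% and 17.9% in PAT3. Ccl25, a chemokine of the small intestinal epithelium, was called higher in PAT1 (1.13, SE 0.20, limma adjusted p = 0.000343) and PAT3 (0.81, SE 0.18, limma adjusted p = 0.00154). Btnl1 was the other gene higher in PAT1, and Abcb1a, an efflux transporter, was higher in PAT3 (1.01, SE 0.33, limma adjusted p = 0.0217), a call lost without Control replicate 2 (0.85, adjusted p = 0.0627) and by the methods' test (adjusted p = 0.0892). In PAT1, Abcb1a had 0.77 (SE 0.36, limma adjusted p = 0.152), and 1.01 (adjusted p = 0.036) without PAT1 replicate 1. Ceacam1, an adhesion molecule, was lower in PAT1 (-1.26, SE 0.29, limma adjusted p = 0.00287) and PAT3 (-1.05, SE 0.27, limma adjusted p = 0.00377), but quantile normalization gave -0.46 (adjusted p = 0.158) and -0.29 (adjusted p = 0.308).

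The myeloid list ran the other way in its mean, though not in each gene. Its 16 measured genes of 19 had a mean with r = -0.68 with Mme (permutation p = 0.00035, adjusted p = 0.0023; rho = -0.75, permutation p = 0.00025, adjusted p = 0.0025; n = 24) and r = -0.56 with Bst1 (permutation p = 0.00696, adjusted p = 0.0232; rho = -0.54, permutation p = 0.015, adjusted p = 0.06; n = 24). Without the 2 farthest mice these were -0.58 and -0.44. Re-centring each sample on its median took both below the threshold, with -0.34 for Mme (permutation adjusted p = 0.141) and -0.28 for Bst1 (permutation adjusted p = 0.213). The summed level ranged from 2498 to 3756 normalized counts in Control, 2165 to 2764 in PAT1 and 2185 to 2939 in PAT3, and 2 of the genes (Cxcr2 and Camp) were at 0 in at least 1 mouse. Itgam and Msr1 were called lower in both groups, and Csf2rb and S100a9 were called lower in PAT3, with 0 called higher. That is 2 of 16 genes in PAT1 and 4 of 16 in PAT3, against 11.2% and 17.9% of all genes called lower. With group means removed, r of the single genes ran from -0.76 to 0.27 with Bst1 and from -0.84 to 0.24 with Mme. Itgam had r = 0.17 with Bst1 and 0.12 with Mme. The part of enterocyte and myeloid RNA in the group differences of Bst1 and Mme was not tested.

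The means of 3 further lists, of cells in which Bst1 or Mme are known or which Bst1 supports, had r between -0.15 and 0.09 with the members, while single genes went both ways. Across the genes of each list, r with Bst1 and with Mme ran from -0.45 to 0.29 and from -0.60 to 0.26 (Paneth and crypt secretory), from -0.31 to 0.15 and from -0.49 to 0.09 (lymphoid precursor), and from -0.19 to 0.28 and from -0.22 to 0.32 (B cell and follicle). The lowest were those of Nod2, a sensor of bacterial peptidoglycan, with r = -0.45 with Bst1 and -0.60 with Mme, although within PAT1 its r was 0.70 and 0.74. Nod2 itself was low, with a mean log2 value of 4.19 and a lowest count of 5. The 5 measured lymphoid precursor genes of 9 had a mean with r = -0.05 with Bst1 and -0.15 with Mme (permutation adjusted p = 0.932 and 0.688, rho = -0.03 and -0.19). Their summed level was 295 to 376 normalized counts in Control, 258 to 801 in PAT1 and 276 to 618 in PAT3. Of them, 0 were called in PAT1 and 2 were called higher in PAT3 (Kit and Rag2). Rag2 was near the floor, with a mean log2 value of 2.84 and a lowest count of 3. The 3 measured Paneth and crypt secretory genes of 8 had a mean with r = 0.01 with Bst1 and -0.02 with Mme (permutation adjusted p = 0.957 for both, rho = -0.09 and -0.23). Nod2 was called lower in PAT1 and Cd24a higher in PAT3. Itln1 of this list had r = 0.89 with Bst1 and 0.92 with Mme within Control. Within PAT1 its r was -0.56 and -0.30, and within PAT3 it was -0.16 and -0.48. Each of these rests on few mice, and Control replicate 4 was the lowest of its group in both members and in this list mean. Whether r differed between groups was not tested. The 15 measured B cell and follicle genes of 18 had r = 0.09 and 0.03 (permutation adjusted p = 0.701 and 0.944; rho = 0.09 and -0.10), with 0 called in PAT1 and Cd79b lower in PAT3. Over all genes, 7.31% were called higher and 11.2% lower in PAT1, and 13.9% and 17.9% in PAT3. With 24 mice, correlations as small as those of these 3 list means were not detectable, and their signs turned under some alternatives.

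The remaining lists lay between. The mean of the 9 measured stromal and vascular genes of 13 had r = -0.40 with Bst1 and -0.39 with Mme (permutation adjusted p = 0.098 for both; rho = -0.36 and -0.33). These passed after quantile normalization (-0.55 for both) and with the means of each group and sex removed (-0.66 and -0.60). Between groups, 0 of these genes were called in PAT1 and 4 of 9 higher in PAT3 (Fn1, Cxcl12, Cd34 and Pdgfrb), against 13.9% of all genes. The mean of the 15 measured T cell genes of 16 had r = 0.36 with Bst1 and 0.12 with Mme (permutation adjusted p = 0.105 and 0.701; rho = 0.38 and 0.09), and for Bst1 it passed after re-centring (0.53) and quantile normalization (0.60). Of these T cell genes, 4 of 15 were called lower in PAT1 and 11 of 15 in PAT3, against 11.2% and 17.9% of all genes, with 0 called higher.

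**Figure D5:**
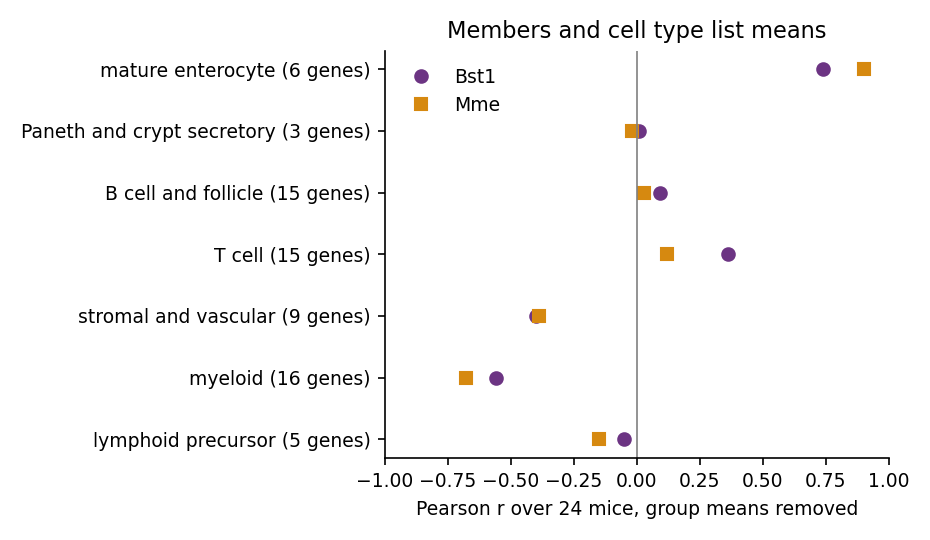
Pearson r of Bst1 (circles) and Mme (squares) with the mean of each cell type list over 24 mice after removal of group means, with the number of measured genes in brackets. The enterocyte list has the highest r with both (0.74 and 0.90), the myeloid list the lowest (-0.56 and -0.68), and the means of the Paneth, B cell and lymphoid precursor lists lie between -0.15 and 0.09.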

How the data were processed

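Expression of 547 genes was measured in the terminal ileum of 24 mice with the NanoString nCounter mouse immunology panel. For RNA extraction the labels name TRIzol with a column, and the methods name a Qiagen kit. The authors normalized the counts with DESeq2 and deposited log2 values of the normalized counts, in which a count of 0 is listed as 0. Each sample's values were whole multiples of one step (100% whole at a tolerance of 0.01 counts), from which counts were recovered. The chi-square between any of the 276 pairs of samples was at least 3.98 per degree of freedom, so no sample was counted as a repeat.

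Groups and sex came from the labels. Replicate numbers are accession order and link no animals, and litter and cage were not given, so tests treat mice as independent. Bst1 and Mme, the gene lists and the tests were chosen with earlier results of these data known. Named genes were both members, the measured ectoenzyme and enterocyte genes, and for each member the 5 genes with the highest and 3 with the lowest r. The genes next to the members in rank of rise (Cxcl11, C9, Cxcr5 and Tnfsf15), Itln1, and genes that make up a small count of calls, were named after their values were seen.

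The deposited log2 values were fitted with limma (version 3.58.1, R 4.3.3) over the 3 groups in one model. Genes are termed called at a Benjamini-Hochberg adjusted p under 0.05 over 547 genes. Sex effects came from fits with treatment and with its interaction. Correlations used two-sided permutation tests (exact for groups under 10, otherwise 100000 permutations, within groups after centring), with adjustment over 20 relations. Alternatives were re-centring, quantile normalization, a pseudocount of 1, a filter at a mean log2 value of 5, sample weights, covariates, single sexes, the methods' test (aov and TukeyHSD) and leaving out each sample. The scripts were tested on simulated data. Motifs were counted in 32851 RefSeq promoter windows. Counting errors cover counting alone, and the SDs cover the spread between mice.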

Additional observations from a re-analysis of the deposited data

Results flagged for a closer look

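Both members, their log2 ratio and the enterocyte mean were checked in each of 3 groups for a sample far from the rest. Of these 12 sets, 4 held one, where chance gives about 1 in 20 for a single set. The sets are not independent, since their values moved together and PAT3 replicate 5 recurs among the 4. The count therefore cannot be weighed against that rate. PAT3 replicate 5, a female, had 6.30 for Bst1 when the next PAT3 mouse had 8.52, and 6.45 for Mme when the next had 8.88. The same mouse had the lowest mean of the enterocyte genes in PAT3, 10.90 against 11.98 in the next. PAT1 replicate 1, the mouse with the lowest total count (171671), had an enterocyte mean of 11.60 when the next PAT1 mouse had 12.45, while its Bst1 of 10.10 lay within the range of the other PAT1 males and its Mme of 9.34 was the lowest of PAT1. What set these mice apart was not tested.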

How the results depend on the processing

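The group differences of Bst1 and Mme kept their direction in all 144 alternatives and moved by less than 1 within-group SD (1.11 and 1.12), which is as large as some of these differences. Those that moved by over 1.5 times were, for Bst1, PAT3 minus Control in females alone (0.96, against 1.63). For Mme, PAT3 minus Control (1.12) became 0.58 in females alone, 0.61 with the enterocyte mean as a covariate and 0.71 without Control replicate 4, PAT1 minus Control (1.90) became 1.08 with that covariate, and PAT3 minus PAT1 (-0.78) became -0.35 in males alone, -1.27 in females alone, -0.47 with that covariate and -0.44 without PAT3 replicate 5. Over all 70 results, 1561 of 1667 alternative values were near the reported one, that is, with the same direction and call for a test, within 1 SD for the member differences, and within 1.5 times for a count of genes. The cause of the changes below was not tested. No paired analysis was possible because the labels carry no replicate numbers that link animals across groups.

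With each sample left out in turn, r of Bst1 with Mme ranged from 0.72 to 0.95 in Control and from 0.60 to 0.92 in PAT3 (0.88, adjusted p = 0.0757 by permutation, without replicate 10). The r of Bst1 ranged from -0.68 to -0.49 with the myeloid mean (the call was lost without Control replicate 4 or PAT3 replicate 5), from -0.52 to -0.30 with the stromal mean (gained without PAT1 replicate 3 or 7), from -0.24 to 0.23 with the Paneth mean and from -0.15 to 0.10 with the lymphoid precursor mean. The r of Mme ranged from -0.35 to 0.21 with the Paneth mean and from -0.05 to 0.08 with the B cell mean. The sex difference of Bst1 ranged from 0.84 to 1.23. Log2 differences that changed sign ranged from -0.12 to 0.20 for Card9 in PAT1, and in PAT3 from -0.13 to 0.32 for Btnl2, from -0.10 to 0.02 for Emr1 and from -0.18 to 0.07 for Tfrc.

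Re-centring on the sample median gave r of 0.53 for Bst1 with the T cell mean, -0.28 for Bst1 and -0.34 for Mme with the myeloid mean, 0.08 for Bst1 and 0.01 for Mme with the lymphoid precursor mean, and 0.26 for Mme with the Paneth mean. It gave 152 genes higher in PAT3 and turned the log2 differences of C1qb (0.05) and Entpd1 (0.02) in PAT1 and of Csf1r (0.07), Emr1 (0.15), C1qb (0.02) and Tfrc (0.07) in PAT3. Quantile normalization gave r for Bst1 of -0.11 (Paneth), 0.60 (T cell), -0.55 (stromal) and 0.04 (lymphoid precursor), and -0.55 for Mme (stromal). Removing the means of each group and sex gave r for Bst1 of -0.02 (total count), -0.06 (Paneth), -0.66 (stromal), -0.48 (myeloid, adjusted p = 0.157 by permutation) and 0.02 (lymphoid precursor), and -0.60 for Mme (stromal). Sample weights gave a sex difference of 0.97 for Bst1, 146 genes higher in PAT3, -0.0033 for Card9 in PAT1 and 0.08 for Tfrc in PAT3. The methods' test called 23 genes higher in PAT1. None of the values that changed sign passed the threshold (lowest adjusted p = 0.348). With 7 to 10 mice a group and SDs above 1 in Control and PAT3, correlations within one group are imprecise.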
